A study of Bos taurus with 8 samples.

Results

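The proximal stretch of the tiled domain on bovine chromosome 29 was measured with 941 of the 10249 non-control probes of a custom methylation array. Its members are the probes whose deposited position starts between 49860608 and 50749994 on chromosome 29 of the Btau_3.1 assembly, chosen by position alone. The array carries 1698 probes on this chromosome, and the 757 that lie beyond the proximal stretch make up the distal stretch. DNA came from the arcuate nucleus of the hypothalamus of 8 female calves. In the high-gain group, heifers 1 to 4 were fed for a target gain of 1 kg per day. In the low-gain group, heifers 5 to 8 were fed for 0.5 kg per day. Both schedules ran over ages 4.5 to 8.5 months, tissue was taken at the end, and each heifer gave 1 array. On every array, methyl-CpG-enriched DNA labelled with Alexa Fluor 647 was hybridised together with the same heifer's input DNA labelled with Alexa Fluor 555, at 3 µg each.

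Methylation of cytosine in CpG dinucleotides is a stable mark on DNA that is often dense over repeats and gene bodies and sparse over active promoters with many CpG sites. The methyl-CpG binding domain used for capture holds double-stranded fragments that carry methylated CpG, so a high ratio of enriched to input signal depends both on how many CpG sites a fragment has and on how many of them are methylated. The arcuate nucleus holds neurons that sense nutritional state and control feeding and the reproductive axis. The comparison asked whether the gain schedule before puberty altered methylation there. The deposited files pair no probe with a gene and hold no probe sequence, so items go by their coordinates here, and their place relative to genes, exons, introns and promoters was not analysed. The DNA arrays also give no means to check the labelled tissue against marker genes.

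Values are log2 ratios of enriched to input signal minus the median of all non-control probes of the same array. A value of 0 is therefore the median probe of that array and not an absence of methylation, and a shift shared by every probe is removed. Enriched DNA carried the same dye throughout, so any dye bias is part of every level and cancels only in differences between groups. The probes of the proximal stretch start 567 bp apart at the median, and the largest gap, of 46227 bp, lies between starts at 50052772 and 50098999, with 229 probes before it and 712 after it. For description, probes were averaged in 34 windows of 25 kb holding 8 to 48 probes each, and in 120 regions, each a run of 3 to 23 probes in which no start is more than 1000 bp from the next.

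The enriched signal of the proximal stretch was well above background more often in high-gain heifers. It was so at 74.2%, 75.3%, 73.9% and 77.8% of the 941 probes in high-gain heifers 1 to 4, against 66.0%, 67.3%, 70.7% and 55.3% in low-gain heifers 5 to 8. The groups did not overlap (exact permutation test, two-sided, p = 0.0286, the smallest that 4 against 4 allows). The same held for the array's other 9308 probes, with a mean of 73.7% among high-gain and 62.1% among low-gain heifers. For the input signal the shares averaged 86.0% ± 5.26 among high-gain and 85.4% ± 2.15 among low-gain heifers (SD, n = 4 each; exact permutation p = 0.857). In the proximal stretch the enriched signal of 102 probes stood well above background on no array, that of 122 on no high-gain array and that of 181 on no low-gain array.

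Averaged over the whole proximal stretch, mean enrichment lay near each array's median probe, and the groups overlapped. The mean was -0.00, -0.02, -0.08 and 0.17 in high-gain heifers 1 to 4, against -0.01, 0.14, 0.24 and 0.12 in low-gain heifers 5 to 8. High-gain heifers 1 and 4 and low-gain heifers 5, 6 and 8 each lay inside the range of the other group. The group means were 0.02 ± 0.11 and 0.12 ± 0.10 (SD, n = 4 each, high-gain and low-gain), a difference of -0.10 (exact permutation test, two-sided, p = 0.257). The 8 arrays lay in 2 rows of 1 slide, each with 2 heifers of either group, and the difference was -0.07 within row 1, -0.13 within row 2 and -0.10 with the row as a block. Normexp background correction turned it to 0.06 (exact permutation p = 0.2). The median over the proximal stretch was 0.05, -0.04, 0.07 and 0.28 in high-gain heifers 1 to 4, against 0.04, 0.35, 0.41 and 0.32 in low-gain heifers 5 to 8. It averaged 0.19 over the 8 arrays and was above 0 on 7 of them (exact sign-flip p = 0.0234). Between groups it differed by -0.19 (exact permutation p = 0.114), with overlap.

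Relative to the other probes of the array, the proximal stretch was more enriched on 7 of 8 arrays. The mean of its probes minus the mean of the other 9308 was 0.08, -0.03, 0.09 and 0.38 in high-gain heifers 1 to 4, against 0.09, 0.36, 0.30 and 0.34 in low-gain heifers 5 to 8. Over the 8 arrays this averaged 0.20 (exact sign-flip test, two-sided, p = 0.0156), and the groups overlapped. Set against the distal stretch of the same domain, the proximal stretch differed by -0.04 on average (exact sign-flip p = 0.25). That second difference was 0.01, 0.08, 0.00 and -0.06 in high-gain heifers 1 to 4, against 0.06, -0.15, -0.16 and -0.13 in low-gain heifers 5 to 8. Low-gain heifer 5 thus stood apart from the other low-gain heifers.

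Probe design moved with these levels. Probes span 45 to 60 bp of the genome, and the proximal stretch is rich in the shortest, with 57.0% at 45 bp, 28.7% at 46 to 59 bp and 14.3% at 60 bp, against 33.5%, 28.8% and 37.7% among the other probes. Compared only with other probes of 45 bp, the proximal stretch was higher by 0.055 at the mean of 8 arrays, with a range of 0.03 to 0.09. Compared only with other probes of 60 bp, it was higher by 0.17, with a range of 0.05 to 0.28. Both differences were above 0 on 8 of 8 arrays (exact sign-flip p = 0.0078 each, the smallest that 8 arrays allow). The excess over the rest of the array was thus smaller within probes of 1 span, and centring within spans, an alternative chosen after the data were seen, left 0.05 (exact sign-flip p = 0.0156).

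Within the proximal stretch, short and long probes took opposite order in the groups, although neither separated them. The 45 bp probes averaged 0.02, -0.17, -0.06 and 0.32 in high-gain heifers 1 to 4, against -0.02, 0.43, 0.52 and 0.37 in low-gain heifers 5 to 8 (difference -0.30, exact permutation p = 0.0857). The 60 bp probes averaged 0.00, 0.34, -0.10 and -0.42 in high-gain heifers 1 to 4, against 0.03, -0.56, -0.39 and -0.44 in low-gain heifers 5 to 8 (difference 0.29, exact permutation p = 0.257). High-gain heifer 4 had the ordering of low-gain heifers 6, 7 and 8, with short probes high and long probes low. High-gain heifers 1 and 3 and low-gain heifer 5 showed hardly any gap between short and long probes, and high-gain heifer 2 showed the reverse order. The 45 bp mean minus the 60 bp mean was 0.02, -0.51, 0.04 and 0.75 in high-gain heifers 1 to 4, against -0.04, 0.99, 0.90 and 0.81 in low-gain heifers 5 to 8 (exact permutation p = 0.171). Among the array's other probes this gap was 0.12, -0.37, 0.15 and 0.97 in high-gain heifers 1 to 4. In low-gain heifers 5 to 8 it was 0.14, 0.98, 0.89 and 0.96, so the pattern among heifers was not particular to the proximal stretch. The channels behind the gap in the proximal stretch differed. In the enriched channel it was 0.39, -0.06, 0.28 and 0.25 in high-gain heifers 1 to 4, against -0.01, 1.24, 1.04 and 1.17 in low-gain heifers 5 to 8. In the input channel it was 0.37, 0.45, 0.24 and -0.50 in high-gain heifers 1 to 4, against 0.03, 0.25, 0.13 and 0.36 in low-gain heifers 5 to 8. The gap thus lay in the enriched signal of low-gain heifers 6 to 8, and mostly in the input signal of high-gain heifer 4. The part of probe span in the results below was not tested beyond the values given beside them.

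**Figure D1:**
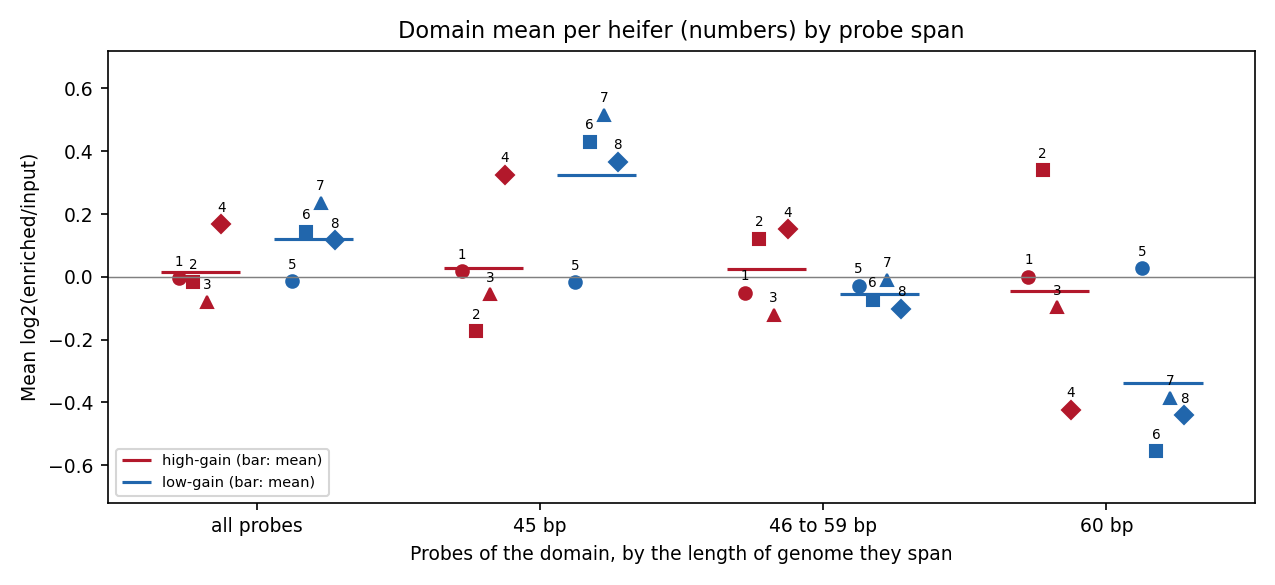
Mean log2(enriched/input), relative to each array's median probe, over the probes of the proximal stretch and over its 45 bp, 46 to 59 bp and 60 bp probes. Each numbered point is 1 heifer and each bar a group mean, high-gain left and low-gain right. Low-gain heifers 6 to 8 and high-gain heifer 4 are high at 45 bp and low at 60 bp, and low-gain heifer 5 is near 0 in every class.

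Ratios also spread over a narrower range in the proximal stretch than elsewhere. The interquartile range of its probes was 0.64, 0.85, 1.09 and 1.41 in high-gain heifers 1 to 4, against 0.96, 1.52, 1.54 and 1.64 in low-gain heifers 5 to 8. The means were 1.00 ± 0.33 among high-gain and 1.42 ± 0.31 among low-gain heifers (SD, n = 4 each), which overlapped (exact permutation p = 0.143). The order of the groups turned when arrays were scaled to 1 spread, with a difference of 0.05. On 8 of 8 arrays the interquartile range was below that of the other probes, by 0.43 at the mean (exact sign-flip p = 0.0078). It was not compared within probes of 1 span, nor with the distal stretch, where 10.3% of probes span 60 bp. The narrower range is therefore not shown to be particular to the proximal stretch.

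Along the proximal stretch, window means of both groups ran between -0.27 and 0.43, and 25 of 34 lay above 0. The 3 most enriched windows were those at 50350183 to 50374518 (0.43 ± 0.11, SE), 50625791 to 50649937 (0.33 ± 0.09, SE) and 50454797 to 50471883 (0.32 ± 0.11, SE). Their means differed from 0 at adjusted p = 0.0222, 0.0268 and 0.0440 (limma, over 331 windows). Centring within probe spans ended all 3 calls (limma, adjusted p = 0.0638, 0.104 and 0.158), as did slide row 1 taken alone (limma, adjusted p = 0.575 to 0.637). The top window had 0.02, 0.06, 0.19 and 0.48 in high-gain heifers 1 to 4, against -0.03, 0.72, 1.14 and 0.87 in low-gain heifers 5 to 8. Its height thus came mostly from low-gain heifers 6 to 8, and the call ended without high-gain heifer 3 or without low-gain heifer 6, 7 or 8 (limma, adjusted p = 0.0559 to 0.0691). The second window was above 0 on 7 of 8 arrays, at 0.17, 0.30, 0.30 and 0.20 in high-gain heifers 1 to 4, against -0.14, 0.48, 0.60 and 0.73 in low-gain heifers 5 to 8. Its call too ended when high-gain heifer 3 or any of low-gain heifers 6 to 8 was left out (limma, adjusted p = 0.0711 to 0.0937). The window at 50454797 rests on 8 probes and had 0.29, 0.04, -0.08 and 0.41 in high-gain heifers 1 to 4, against -0.09, 0.42, 0.94 and 0.62 in low-gain heifers 5 to 8. Its call was lost in 13 alternatives, among them normexp, which left a mean of 0.05 (limma, adjusted p = 0.358), and each heifer left out in turn except high-gain heifer 2 and low-gain heifer 5. In each of these 3 windows low-gain heifer 5 was below 0 and the other low-gain heifers were above it.

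The least enriched windows lay at 49860608 to 49874166 (-0.27 ± 0.08, SE), 50475537 to 50499819 (-0.20 ± 0.09, SE) and 50100177 to 50123968 (-0.18 ± 0.08, SE), with adjusted p = 0.0283, 0.108 and 0.108 against 0 (limma). The first of them opens the proximal stretch and was below 0 on 7 of 8 arrays, at 0.07, -0.25, -0.38 and -0.36 in high-gain heifers 1 to 4, against -0.43, -0.35, -0.13 and -0.31 in low-gain heifers 5 to 8. Its call ended when high-gain heifer 3 or any of low-gain heifers 6 to 8 was left out (limma, adjusted p = 0.0530 to 0.0828), within either slide row alone, and with loess, which left -0.15 (limma, adjusted p = 0.122). The window at 50475537, where 15 of 41 probes span 60 bp, had -0.17, 0.18, -0.24 and -0.11 in high-gain heifers 1 to 4, against 0.14, -0.55, -0.32 and -0.53 in low-gain heifers 5 to 8. The groups overlapped in all 3 windows. The third of these windows, which follows the largest gap, had -0.24, 0.04, -0.19 and -0.23 in high-gain heifers 1 to 4, against -0.21, -0.57, -0.11 and 0.05 in low-gain heifers 5 to 8.

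Enrichment was slightly higher after the largest gap than before it. The probes after the gap minus those before it gave -0.01, -0.01, 0.17 and 0.10 in high-gain heifers 1 to 4, against 0.13, 0.11, 0.15 and 0.13 in low-gain heifers 5 to 8, a mean of 0.10 over the 8 arrays. That split was chosen after the profile had been seen, so it is given with no test. Of the 8 windows before the gap 4 had a mean above 0, and of the 26 after it 21 did. The share of 45 bp probes was 52.4% before the gap and 58.4% after it, and centring within probe spans left a mean step of 0.07.

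**Figure D2:**
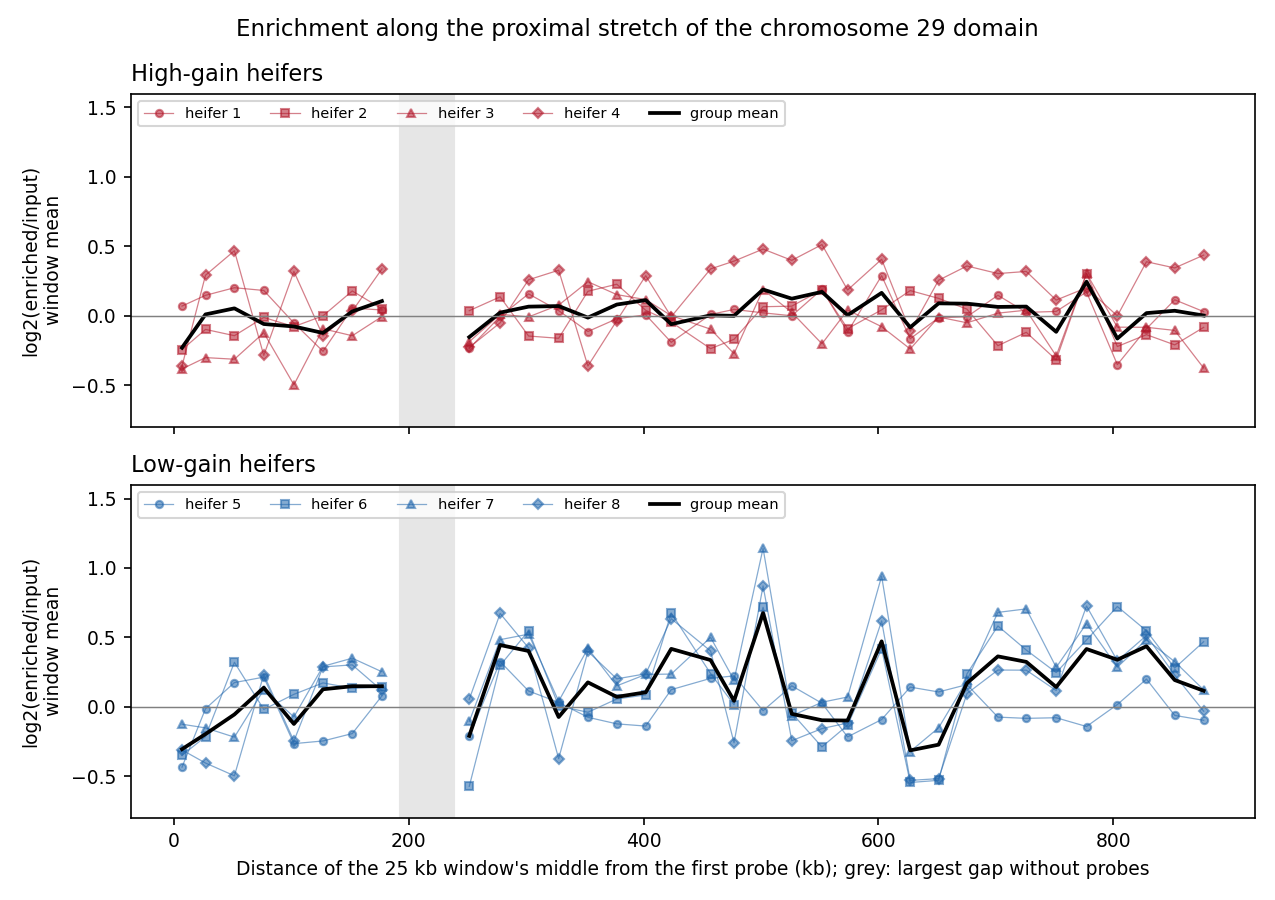
Window means of log2(enriched/input), relative to each array's median probe, against the distance of each 25 kb window's middle from the first probe in kb, for high-gain heifers (top) and low-gain heifers (bottom). Thin lines with markers are single heifers, the black line is the group mean, and the grey band is the largest stretch without probes. The lines of low-gain heifers 6 to 8 run alike, with pairwise correlations of 0.70 to 0.86, and low-gain heifer 5 runs apart from them.

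The profile was shared by low-gain heifers 6, 7 and 8 more than by the other arrays. Over the 34 windows their pairwise Pearson correlations were 0.70 to 0.86, whereas low-gain heifer 5 correlated with them at 0.01 to 0.16. Pairs of high-gain heifers ranged between -0.16 and 0.45, and pairs across groups between -0.27 and 0.56. These correlations describe windows of the same arrays, which share probes and their spans, and carry no test. With values centred within probe spans the 3 low-gain heifers still correlated at 0.61 to 0.84. Pairs across groups then ranged between -0.24 and 0.61, and with normexp between 0.10 and 0.62. The highest of them was in both cases high-gain heifer 3 with low-gain heifer 7. High-gain heifer 3 thus shared part of the profile, and after centring that pair was level with the lowest of the 3 low-gain pairs. With normexp background correction high-gain pairs correlated at 0.21 to 0.40, and low-gain heifer 5 with heifers 6 to 8 at 0.25 to 0.40. The share of 45 bp probes, 32.4% to 80.8% per window, correlated with the window values at 0.24, -0.42, 0.13 and 0.49 in high-gain heifers 1 to 4, against 0.14, 0.68, 0.65 and 0.44 in low-gain heifers 5 to 8.

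Of the 34 windows, 0 passed the test between groups at an adjusted p of 0.05 (limma, two-sided, Benjamini-Hochberg over all 331 windows of the array, of which 0% passed), and the smallest adjusted p was 0.246. At an unadjusted p under 0.05, 5 windows were lower in high-gain heifers, against 9.37% of all windows, and 0 were higher, against 4.53% of all windows. The median difference was -0.12 over the 34 windows and 0.00 over all 331, and 21 of the 34 were lower in high-gain heifers. The 5 windows all lay after the largest gap. Differences over the 34 windows ran between -0.50 and 0.36.

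The window at 50127240 to 50149525, of 24 probes, was near 0 in each high-gain heifer and above 0 in each low-gain heifer. It had -0.01, 0.14, 0.01 and -0.05 in high-gain heifers 1 to 4, against 0.33, 0.30, 0.48 and 0.67 in low-gain heifers 5 to 8. High-gain minus low-gain came to -0.42 ± 0.15 (SE; limma, adjusted p = 0.246), and the groups did not overlap. The window at 50275521 to 50292714, of 19 probes, was also free of overlap. It had -0.19, -0.05, -0.00 and -0.01 in high-gain heifers 1 to 4, against 0.12, 0.68, 0.24 and 0.63 in low-gain heifers 5 to 8, a difference of -0.48 ± 0.17 (SE). These windows were picked by their unadjusted p, so freedom from overlap adds no separate support. The share of all windows without overlap is not given.

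Towards the far end, the window at 50653398 to 50674842, of 30 probes, lay at or below 0 in all 4 high-gain heifers and above 0 in all 4 low-gain heifers. Its values were -0.35, -0.22, -0.08 and -0.00 in high-gain heifers 1 to 4, against 0.02, 0.72, 0.29 and 0.33 in low-gain heifers 5 to 8, a difference of -0.50 ± 0.17 (SE). The window holds a probe at 50666565 to 50666610 with -5.61 to -3.71 on the 8 arrays, which lowers every one of these values. Their side of 0 thus rests in part on that probe, and the window was not averaged without it. The window beside that at 50653398, at 50678026 to 50699830, had -0.09, -0.14, -0.08 and 0.39 in high-gain heifers 1 to 4, against 0.20, 0.55, 0.48 and 0.51 in low-gain heifers 5 to 8. There high-gain heifer 4 reached into the low-gain range, and the difference was -0.42 ± 0.17 (SE). The fifth window is the most enriched one, at 50350183, with a difference of -0.49 ± 0.23 (SE), and its groups overlapped through low-gain heifer 5. Without low-gain heifer 5 its difference was -0.72 (limma, adjusted p = 0.0404). No other window of the proximal stretch passed when a single heifer was left out.

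In these 5 windows the difference lay in the enriched channel and not in the input. The enriched signal differed by -0.51 to -0.43 and the input signal by -0.08 to 0.05 between the group means. Within slide row 1 the ratios differed by -0.66 to -0.25, and within row 2 by -0.67 to -0.35. Centring within probe spans reduced the differences to between -0.33 and -0.21, and normexp background correction to between -0.15 and 0.01. Over all 34 windows, the share of 45 bp probes correlated with the difference at -0.57, and at -0.28 after centring within spans. With normexp, 5 windows were higher in high-gain heifers at an unadjusted p under 0.05 and 0 were lower, so the direction of the count rests on the background correction. Of all 331 windows of the array, 100 passed that unadjusted threshold with normexp, against 46 without it. The 100 are not split by direction here, and the 5 higher windows mark no trait of this stretch.

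**Figure D3:**
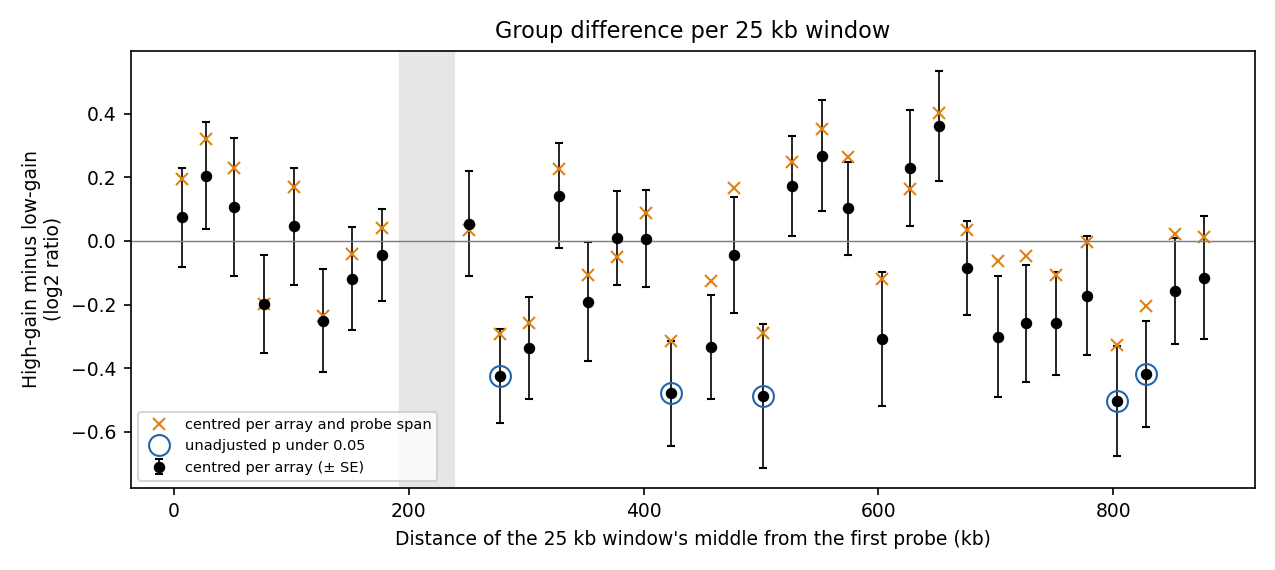
High-gain minus low-gain difference in log2(enriched/input) per 25 kb window, against the distance of the window's middle from the first probe in kb. Black points with bars are differences ± SE (n = 4 each), orange crosses are the same after centring within probe spans, and circles mark the 5 windows at an unadjusted p under 0.05. The circled windows lie between -0.50 and -0.42, and their crosses between -0.33 and -0.21.

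Among regions, which resolve stretches of a few neighbouring probes, 0 of 120 passed between groups after adjustment over all 960 regions of the array (limma, smallest adjusted p = 0.111), against 0.104% of all regions. At an unadjusted p under 0.05, 3 were higher in high-gain heifers, against 6.25% of all regions, and 12 were lower, against 8.23% of all regions. The groups were free of overlap at 1 region higher in high-gain heifers, against 2.6% of all regions, and at 6 that were lower, against 3.65% of all regions. The median difference was -0.13 in the 120 regions and -0.03 in all 960. Of the 7 regions without overlap, 4 had every probe measured, that is well above background in both channels on at least 1 array of each group.

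The region at 50375805 to 50376677 had the largest difference of the 120, and it ran against the general direction. Its 3 probes averaged 0.36, 0.31, 0.76 and 1.05 in high-gain heifers 1 to 4, against -0.21, -0.80, -1.34 and -2.18 in low-gain heifers 5 to 8. All 4 high-gain heifers were above the median probe of their array and all 4 low-gain heifers below it. High-gain minus low-gain came to 1.75 ± 0.37 (SE; limma, adjusted p = 0.111), and it was 0.84 within slide row 1 and 2.67 within row 2. It lay in the enriched channel, at 1.69, and not in the input, at -0.05. Normexp left 1.52, and under that setting alone of the 2 the region passed the adjusted threshold. Centring within spans left 1.45. Without low-gain heifer 5 the difference was 2.06 (limma, adjusted p = 0.0198).

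The probes of that region differed in how far they carried the difference. The middle probe, at 50376300 to 50376360, had 0.24, 0.60, 0.67 and 1.04 in high-gain heifers 1 to 4, against -0.65, -2.47, -1.71 and -2.96 in low-gain heifers 5 to 8. The last probe, at 50376617 to 50376677, had 0.52, -0.02, 0.70 and 0.44 in high-gain heifers 1 to 4, against -0.08, -0.996, -0.58 and -1.46 in low-gain heifers 5 to 8. Both span 60 bp and were free of overlap. The first probe, at 50375805 to 50375854, spans 49 bp and overlapped, with 0.32, 0.34, 0.92 and 1.68 in high-gain heifers 1 to 4, against 0.11, 1.07, -1.73 and -2.11 in low-gain heifers 5 to 8. The region begins just past the end of the most enriched window, whose last region, at 50373046 to 50374518, ran the other way.

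Of the regions without overlap that were lower in high-gain heifers, the one at 50324708 to 50325645 had the smallest unadjusted p. It had 0.17, 0.05, -0.19 and 0.18 in high-gain heifers 1 to 4, against 0.79, 0.70, 1.18 and 1.06 in low-gain heifers 5 to 8. The high-gain heifers lay near 0 and every low-gain heifer at 0.70 or more, and the difference was -0.88 ± 0.22 (SE; limma, adjusted p = 0.173). Its enriched signal differed by -1.26 and its input signal by -0.38. Most of the region's mean height in low-gain heifers came from its first 45 bp probe, which averaged 0.43 ± 0.62 among high-gain and 2.13 ± 1.09 among low-gain heifers (SD, n = 4 each). Taken singly, each of the 3 probes overlapped between the groups. At the first, high-gain heifer 4 had 1.24 and low-gain heifer 5 had 0.60. Low-gain heifer 5 was highest at the last probe, with 1.75.

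The region at 49993807 to 49997455 rests on 8 probes. It had -0.18, -0.13, 0.08 and 0.02 in high-gain heifers 1 to 4, against 0.24, 0.82, 0.76 and 0.17 in low-gain heifers 5 to 8, a difference of -0.55 ± 0.24 (SE). The input differed by 0.31 ± 0.27 and the enriched signal by -0.25 ± 0.28 (SE), so neither channel alone stood clear of its error. The region at 50197011 to 50199325, whose 4 probes all span 45 bp, had -0.17, 0.04, 0.18 and 0.19 in high-gain heifers 1 to 4, against 0.38, 0.31, 0.63 and 0.77 in low-gain heifers 5 to 8. Its difference of -0.46 ± 0.22 (SE) became -0.13 after centring within probe spans. Under normexp the differences of the 3 lower regions ranged between -0.45 and -0.13.

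**Figure D4:**
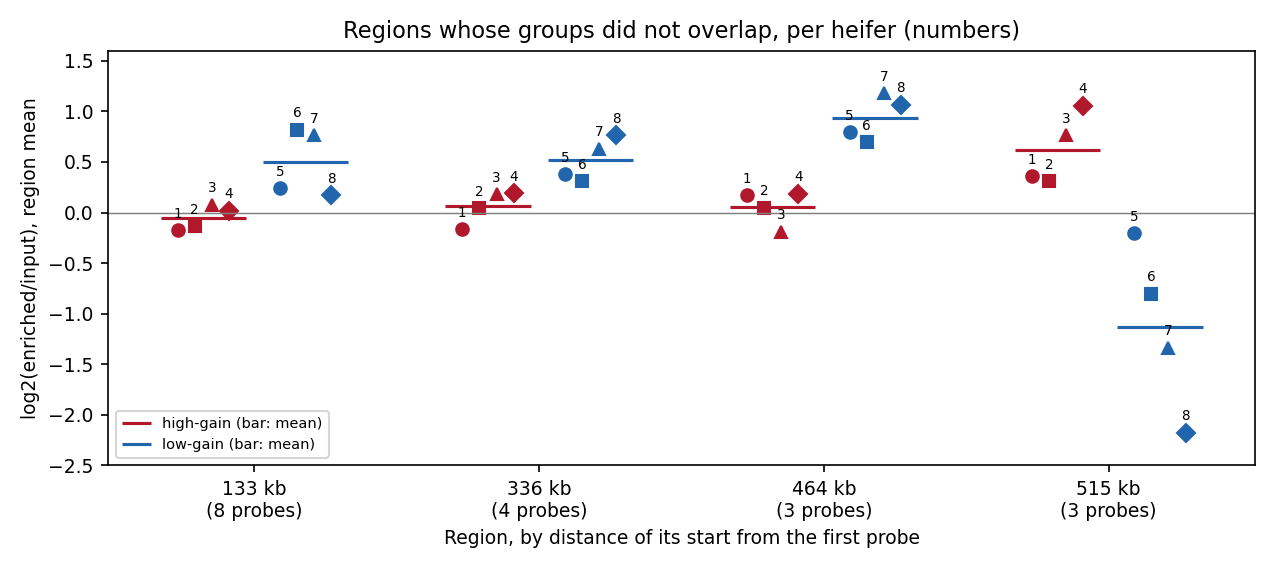
Mean log2(enriched/input), relative to each array's median probe, in the 4 regions whose groups did not overlap and whose probes were all measured, ordered by the distance of their start from the first probe in kb. Each numbered point is 1 heifer and each bar a group mean, high-gain left and low-gain right. High-gain heifers lie below low-gain heifers in the regions at 133, 336 and 464 kb and above them in the region at 515 kb.

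Single probes differed by -2.83 to 3.52 between the group means, and 0 of the 941 passed (limma, adjusted over all 10249 probes, of which 0% passed), with a smallest adjusted p of 0.249. At an unadjusted p under 0.05, 45 were higher in high-gain heifers, against 7.21% of all probes, and 54 were lower, against 5.23% of all probes. The groups did not overlap at 14 higher probes, against 2.67% of all probes, and at 50 lower ones, against 4.2% of all probes, among the 940 with a value on every array. Of the 14 higher probes 2 span 45 bp and 6 span 60 bp, whereas of the 50 lower ones 34 span 45 bp and 4 span 60 bp.

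Lower ratios in high-gain heifers were most frequent among the short probes. Of the 45 bp probes of the proximal stretch 74.4% were lower in high-gain heifers, at a median difference of -0.38. The share was 52.6% for 46 to 59 bp, at a median of -0.07, and 46.7% for 60 bp, at a median of 0.12. Over the whole array the medians for the 3 spans were -0.37, -0.01 and 0.26. The proximal stretch thus ran close to the array for 45 bp probes, and 64.2% of its probes but 55.3% of all probes were lower in high-gain heifers.

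Of the measured probes that were higher in high-gain heifers, the one at 50487872 to 50487932 had the smallest unadjusted p, at a difference of 2.82 ± 0.58 (SE; limma, adjusted p = 0.249). It had 0.61, 0.95, 1.39 and 0.74 in high-gain heifers 1 to 4, against -0.41, -2.73, -1.70 and -2.76 in low-gain heifers 5 to 8. The others named by the same rule, at 50492301 to 50492361, 50429383 to 50429436 and 50395305 to 50395354 besides the middle probe described above, differed by 3.46, 2.89 and 2.07. Each of these 5 probes spans 49 to 60 bp, and in each low-gain heifer 5 was the highest of its group. At 50492301 high-gain heifer 2 reached 4.17 while the other high-gain heifers had 0.65 to 1.62. The input there differed by -1.32 ± 1.45 between the groups, within its error, and the enriched signal by 2.13 ± 0.96 (SE).

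The 5 named probes lower in high-gain heifers differed by -1.69 to -1.06, and each spans 45 or 46 bp. The one at 49995625 to 49995671, in the 8-probe region above, had -0.82, -0.11, -0.22 and 0.03 in high-gain heifers 1 to 4, against 1.02, 1.31, 0.57 and 0.72 in low-gain heifers 5 to 8 (difference -1.18 ± 0.40, SE). The probe at 50207492 to 50207537 had 0.04, 0.11, 0.03 and 0.21 in high-gain heifers 1 to 4, against 0.69, 1.09, 2.02 and 3.37 in low-gain heifers 5 to 8. Those at 50352124 to 50352169 and 50134319 to 50134364 differed by -1.09 and -1.06 and lie in 2 of the 5 windows described above. At 50537875 to 50537920 the ratio differed by -1.69, the input by 2.71 ± 2.08 and the enriched signal by 1.02 ± 2.04 (SE). With errors of that size the channels do not show where the difference lay.

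More regions passed the test of their level than the test between groups. Of the 120 regions 7 had a mean above 0 at an adjusted p under 0.05, against 3.33% of all regions, and 6 had a mean below 0, against 9.58% of all regions (limma, both group means averaged and tested against the array median). The region with the highest mean lay at 50373046 to 50374518, with 0.18, 0.14, -0.30 and 1.24 in high-gain heifers 1 to 4, against 0.46, 1.37, 1.54 and 1.06 in low-gain heifers 5 to 8. Its mean was 0.71 ± 0.17 (SE; limma, adjusted p = 0.0210), it was above 0 on 7 of 8 arrays, and normexp left 0.20, which no longer passed (limma, adjusted p = 0.162). The region at 50648896 to 50649937 had a mean of 0.66 ± 0.18 (SE; limma, adjusted p = 0.0325), with -0.07, 0.21, 0.64 and 0.23 in high-gain heifers 1 to 4, against -0.06, 1.28, 1.23 and 1.78 in low-gain heifers 5 to 8. The region at 50602889 to 50605478, of 7 probes, had a mean of 0.51 ± 0.13 (SE; limma, adjusted p = 0.0280). It had -0.05, -0.14, 0.24 and 0.60 in high-gain heifers 1 to 4, against 0.31, 0.98, 1.06 and 1.099 in low-gain heifers 5 to 8, and normexp ended its call too, at 0.15 (limma, adjusted p = 0.0654). The regions at 49931850 and 50656496, with means of 0.57 and 0.54, varied too much among heifers to pass (limma, adjusted p = 0.0901 and 0.165). Each of the 3 calls ended without low-gain heifer 6, 7 or 8, and those at 50648896 and 50602889 also without high-gain heifer 3 or 4 (limma, adjusted p = 0.0540 to 0.0954). Slide row 1 alone gave means of 0.54, 0.34 and 0.27, and all 3 calls ended there.

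The lowest region of the proximal stretch, at 50600406 to 50601862, was below 0 on every array. It had -0.99, -0.75, -2.20 and -1.39 in high-gain heifers 1 to 4, against -1.09, -1.54, -1.32 and -1.84 in low-gain heifers 5 to 8, with a mean of -1.39 ± 0.16 (SE; limma, adjusted p = 0.000652). A single probe set this level. The probe at 50600406 to 50600452 lay between -5.26 and -3.77 on the 8 arrays, and without it the region's mean was -0.34 (limma, adjusted p = 0.224). The region at 50665193 to 50667116, with a mean of -0.54 ± 0.13 (SE; limma, adjusted p = 0.0199), likewise held a probe at 50666565 to 50666610 with values between -5.61 and -3.71. Without that probe its mean was 0.27 (limma, adjusted p = 0.197), on the other side of 0. Both probes were singled out after their values were seen.

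Both of these probes were marked by bright input rather than by dim enriched signal. Their input signal exceeded the array median by 5.57 to 6.57 and by 6.34 to 7.45 on the log2 scale, which ranked them 86 to 156 and 53 to 95 among the 10249 probes. The enriched signal was also above the array median on every array, by 0.49 to 2.39 and by 1.06 to 3.59. In the proximal stretch these 2 were the probes below -3 on all 8 arrays, and elsewhere on the array 5 were. Whether they lie in repeated sequence was not analysed here.

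The second lowest region, at 50492060 to 50493286, was also below 0 on every array. Its 5 probes all span 60 bp, and it had -0.70, -0.08, -0.93 and -1.75 in high-gain heifers 1 to 4, against -1.46, -1.18, -0.94 and -1.78 in low-gain heifers 5 to 8. The mean was -1.10 ± 0.17 (SE; limma, adjusted p = 0.00310), and it was -0.65 after centring within probe spans (limma, adjusted p = 0.0252) and -0.75 with normexp (limma, adjusted p = 0.00747). The probe at 50492301, which was higher in high-gain heifers, is among the 5. The region at 50118432 to 50119439 had a mean of -0.82 ± 0.20 (SE; limma, adjusted p = 0.0199) and was below 0 on 7 of 8 arrays. That call was lost when high-gain heifer 3 was left out (limma, adjusted p = 0.0606) and when low-gain heifer 6 was (limma, adjusted p = 0.0576). The call at 50665193 was lost when any of high-gain heifers 1 and 3 and low-gain heifer 7 was left out (limma, adjusted p = 0.0565 to 0.0617). That at 49906622 to 49907642, with a mean of -0.55, did not pass (limma, adjusted p = 0.101).

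The lowest region, whose level was set by 1 probe as described above, lay between 2 enriched ones. The region at 50595668 to 50597860, of 8 probes and picked out for its place after its values were seen, had a mean of 0.40 ± 0.12 (SE; limma, adjusted p = 0.0476) on 1 side of it, and the 7-probe region at 50602889 had 0.51 on the other. With normexp neither of the 2 passed, at 0.07 (limma, adjusted p = 0.284) and 0.15 (limma, adjusted p = 0.0654). Of the 940 probes with a value on every array, 47 were above 0 on all 8 arrays, or 5.00%, against 3.32% of the other probes. Below 0 on all 8 arrays were 31 probes, or 3.30%, against 3.33% of the other probes. The share above 0 on every array was thus larger in the proximal stretch than among the other probes, and the share below 0 was alike. Most probes of the stretch did not keep 1 sign on every array. Those above 0 were mostly short, with 31 of 47 at 45 bp and 2 at 60 bp, where 57.0% of all probes of the stretch span 45 bp.

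The counts past the threshold changed most when low-gain heifer 5 was left out. Without it 1 window, 2 regions and 20 probes of the proximal stretch passed (limma, adjusted over all features), whereas without any other single heifer 0 windows, 0 regions and 0 probes did. The regions were those at 50375805 and at 50648896, the second with a difference of -1.17 (limma, adjusted p = 0.0388). Of the 20 probes 16 were higher in high-gain heifers and 4 lower. The share of all windows, regions and probes that passed without low-gain heifer 5 is not given, so these counts mark no trait of this stretch. No label sets this heifer apart, so the values without it are given beside the full comparison and do not replace it.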

How the data were processed

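Enriched and input DNA of 8 heifers were co-hybridised to 8 two-colour arrays on 1 slide. Per the file headers, the deposited intensity values are processed signals of Agilent Feature Extraction 10.7.1.1, background-subtracted and linearly dye-normalised, and probe positions are on Btau_3.1. The authors' deposited log2 table, used as an alternative, matches log2 of enriched over input, both as median minus background median, within 0.0001 at 80944 of 80944 spots compared. It is not centred: its column medians are -0.42, 0, -0.51, -1.07, -0.87, -0.89, -1.52 and -1.82 for heifers 1 to 8.

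From the intensities log2(enriched/input) was computed, outlier spots marked by the scanner software were dropped, and the median over 10249 probes was subtracted per array. Probes, regions (at least 3 probes, gaps up to 1000 bp; 960 in all) and 25 kb windows (at least 5 probes; 331 in all) were fitted over the whole array with limma 3.58.1 in R 4.3.3 (two-sided, Benjamini-Hochberg, threshold 0.05). Steps were tested on simulated data. Means and shares per heifer were tested by exact permutation or sign flips. Named were windows at an unadjusted p under 0.05, the 3 highest and 3 lowest windows and 5 highest and 5 lowest regions by mean, up to 6 regions per direction without overlap and with all probes measured, and up to 5 such probes per direction measured on 3 of 4 arrays of each group. Items outside that rule are marked as chosen after their values were seen, apart from the single probes of named regions. The members, lists and tests were chosen with earlier results of these data known.

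The number of arrays limits the precision. Only the slide row could serve as a batch, since the labels give none of capture or labelling. Normexp (offset 50) was run on median signals.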

Additional observations from a re-analysis of the deposited data

Results flagged for a closer look

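Of 90 groups of 4 heifers examined for 1 value far from the others, 4 had one, and chance alone marks about 1 in 20 groups. For the mean of the proximal stretch minus that of the distal stretch, low-gain heifer 5 had 0.0557, whereas the other low-gain heifers had -0.16 to -0.13. In the window at 50678026, high-gain heifer 4 had 0.39, and the other high-gain heifers had -0.14 to -0.08. In the region at 50602889, low-gain heifer 5 had 0.31, whereas the other low-gain heifers had 0.98 to 1.099. At the probe at 50395305, low-gain heifer 5 had -0.0819 and the other low-gain heifers -1.55 to -1.36. Causes were not tested.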

How the results depend on the processing

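The mean of the proximal stretch, high-gain minus low-gain, turned to 0.0638 with normexp (exact permutation p = 0.2) and to 0.29 over 60 bp probes only (p = 0.257, exact permutation), and was -0.15 to -0.07 with 1 heifer left out. Its excess over the other probes was 0.18 to 0.23 with 1 heifer left out and stayed above 0 under every alternative run. The difference from the distal stretch was 0.0027 after centring within probe spans (exact sign-flip p = 0.844) and -0.06 to -0.03 with 1 heifer left out. The interquartile range difference was 0.0470 after scaling arrays to 1 spread (exact permutation p = 0.571) and -0.57 to -0.30 with 1 heifer left out. Leaving out 1 heifer gave 0 to 1 windows, 0 to 2 regions and 0 to 20 probes past the threshold between groups. The highest came each time without low-gain heifer 5, and normexp gave 1 region, that at 50375805. Counts under alternatives, here and below, are those of the proximal stretch. Of all 960 regions of the array, 124 had a mean that differed from 0, against 283 with normexp and 259 with loess. The other counts here and below are not set against the share of all features. The count of regions whose mean differed from 0 was 13, and it was 25 with normexp (8 above, 17 below), 37 with loess (31 above, 6 below), 6 with scaled arrays, 24 with input well above background on every array (17 above, 7 below), 3 within slide row 1, 2 with trended robust moderation, and 3 to 36 with 1 heifer left out (36 without low-gain heifer 5). The window at 50678026 differed by 0.0129 with normexp. At an unadjusted p under 0.05 the windows numbered 5, against 13 with input well above background (1 higher, 12 lower), 8 with both channels so, and 2 to 14 with 1 heifer left out. Of 690 values of 35 named items under alternatives, 609 kept their direction and side of the threshold, 67 fell short of it, 13 newly passed and 1 reversed. An item that did not pass at first counts as kept unless it newly passed or reversed. The 67 all lay in 9 items, each a mean of both groups that had passed. The 609 therefore do not measure how firm those calls were. The alternatives on probe span were chosen after seeing the data, and the causes of these changes were not tested. No paired analysis was possible because the 2 groups share no heifer number. Enriched signals close to background limit what can be read at the low end of the ratios.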
